A study of Mus musculus with 4 samples.

Results

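The class I antigen presentation genes described here are 7 of the 24864 genes tested: the class I heavy chain genes H2-K1, H2-D1, H2-T23, H2-M3 and H2-Q4, the light chain gene B2m, and Nlrc5, the transactivator of class I genes. They were taken by name from a list of class I chains and their transactivator, by a rule that uses no measured value. The members were, however, chosen with earlier results of these data known. The cells were Lgr5-high intestinal stem cells isolated by flow cytometry from mice that carried the Lgr5-EGFP-Ires-CreERT2 knock-in allele, in which a green fluorescent reporter is made from the Lgr5 locus. The control group (Lgr5ki) had this allele alone. The knockout group (Ifnar1-/-:Lgr5ki) also lacked Ifnar1, a chain of the receptor for type I interferon, and the labels name no tissue to which that loss was restricted. Mice of either genotype were injected intraperitoneally with poly(I:C), an artificial double-stranded RNA that mimics viral RNA, at 2 mg/kg each day of 1 week, so the comparison is between genotypes under treatment and no untreated sample is used here. Each group had 2 samples, each on its own Agilent single-colour array. Replicate number 1 of both groups lay on 1 slide and replicate number 2 on another. Nothing in the labels says that samples came from separate animals, so p-values measure only sample-to-sample spread, which may be technical, and 4 arrays limit the precision of every value.

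MHC class I molecules are formed by a heavy chain and the invariant light chain beta-2-microglobulin, and they show peptides from inside the cell to CD8 T cells. The classical heavy chains H2-K and H2-D are made by most nucleated cells, while nonclassical chains such as Qa-1 (H2-T23) and H2-M3 show restricted sets of peptides. NLRC5 does not bind DNA by itself. It is recruited to the SXY module of class I promoters, whose X and Y boxes are bound by RFX, CREB or ATF, and NF-Y proteins, and both NLRC5 and the heavy chain genes are known to be inducible by interferons.

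The promoters of the chains are shown first because several of them shared upstream letters that the choice of genes did not use. RefSeq's table for assembly GRCm38.p6 held promoters for 6 of the 7 genes, with 2 listed starts for H2-K1, the first of which is used here. Each stretch lies upstream of the listed transcription start and runs 5′ to 3′ on the strand of the gene. They are B2m on the plus strand at chr2:122147540-122147646, H2-K1 on the minus strand at chr17:34000351-34000466, H2-D1 on the plus strand at chr17:35262915-35263053, H2-Q4 on the plus strand at chr17:35379435-35379574, H2-T23 on the minus strand at chr17:36032741-36032833 and H2-M3 on the plus strand at chr17:37270097-37270225. Capitals mark matches on either strand to the motifs described after the sequences.
H2-K1: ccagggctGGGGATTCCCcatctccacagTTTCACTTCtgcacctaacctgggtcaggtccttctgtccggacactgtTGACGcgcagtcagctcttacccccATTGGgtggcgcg
H2-D1: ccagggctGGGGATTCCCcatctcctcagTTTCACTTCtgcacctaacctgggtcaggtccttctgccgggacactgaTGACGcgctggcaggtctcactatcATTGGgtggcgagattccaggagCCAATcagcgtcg
H2-Q4: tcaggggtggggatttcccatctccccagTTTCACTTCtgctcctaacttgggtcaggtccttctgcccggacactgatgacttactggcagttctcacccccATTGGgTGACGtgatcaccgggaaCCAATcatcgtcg
H2-M3: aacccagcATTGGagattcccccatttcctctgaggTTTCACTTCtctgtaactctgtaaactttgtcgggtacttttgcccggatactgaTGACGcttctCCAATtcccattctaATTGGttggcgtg
H2-T23: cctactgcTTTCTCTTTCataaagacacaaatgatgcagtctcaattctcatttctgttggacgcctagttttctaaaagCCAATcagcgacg
B2m: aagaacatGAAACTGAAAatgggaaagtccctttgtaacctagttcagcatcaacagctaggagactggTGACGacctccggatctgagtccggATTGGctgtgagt

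Motifs were searched on both strands of the 250 bases before each of the 32851 listed starts. The Y box core CCAAT stood upstream of 6 of 6 members, against 33.8% of all promoters, and the X2 box core TGACG upstream of 5 of 6, against 17.8%. The TGACG counted in H2-Q4, at bases -73 to -69, lies after its ATTGG at -79 and is not the stretch, from base -109, that aligns to the X2 box of H2-K1. The core of the interferon-stimulated response element, written as GAAA, any 2 bases and GAAA, was found in B2m and H2-T23 and in 2.98% of all promoters. A shorter element, GAANNGAAA, can overlap that core. It was added after the member promoters had been read, was found in H2-K1, H2-D1, H2-Q4 and H2-M3, and stood in 6.31% of all promoters. The gamma-activated site TTCNNNGAA occurred once among the members, in H2-M3 at bases -209 to -201, outside the stretch shown, and in 7.02% of promoters. The NF-kB site of the class I enhancer A, GGGGATT followed by CCC, was present in H2-K1 and H2-D1 and in 28 of the 32851 promoters (0.0852%).

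The X2 and Y cores also stood at a fixed distance in 4 members. In B2m, H2-K1, H2-D1 and H2-M3, an ATTGG, which is CCAAT on the opposite strand, began 25 bases after the start of TGACG. This spacing, also added after the promoters had been read, was found in 30 promoters of 26 genes (0.0913%). Among the 19 measured genes of those 26 that are no members, the knockout minus control difference ran from -1.70 to 0.60 with a median of 0.07. Both sites of H2-K1 were aligned to the other promoters. Counting positions from 1 at the 5′ end, the aligned 11-base NF-kB site carried C8T in H2-Q4 and G3A in H2-M3 relative to H2-K1, and no change in H2-D1, while the closest stretches of H2-T23 and B2m each had 4 mismatches. The 10-base stretch ending in the X2 core carried T5A and G10T in H2-Q4, T5A in H2-D1 and H2-M3, and T5G in B2m, and in H2-T23 the 6 closest stretches each had 4 mismatches. The X2, Y and enhancer A motifs are those of class I promoters, so finding them upstream of class I genes is no test. These matches describe letters in a window only, and protein binding was not measured in these data.

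**Figure D1:**
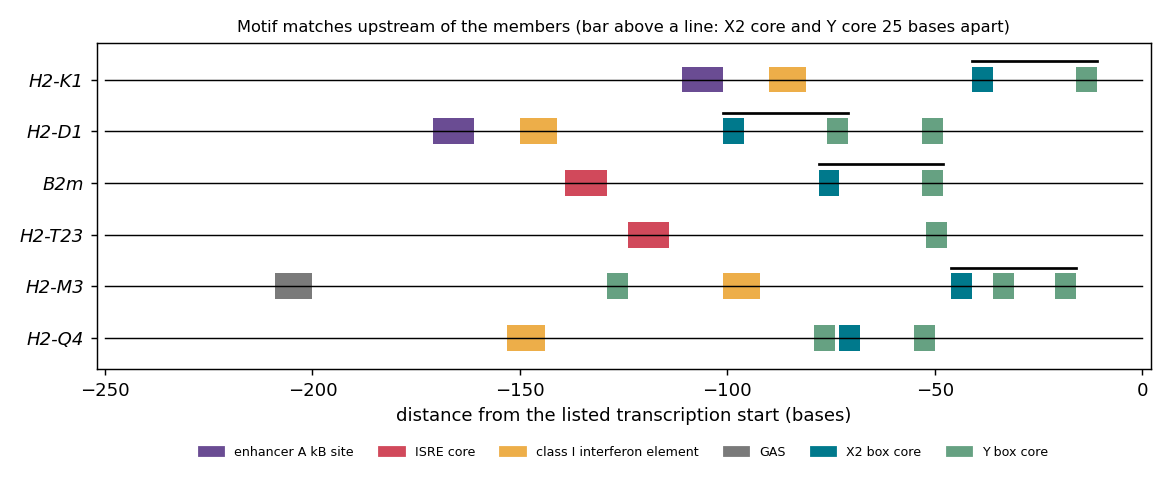
Positions of motif matches in the 250 bases upstream of the listed transcription start of 6 members, with distance from the start in bases on the horizontal axis, 1 line per gene and 1 colour per motif. A black bar above a line joins an X2 core and a Y core whose first bases are 25 bases apart, which is seen for H2-K1, H2-D1, B2m and H2-M3 and not for H2-T23 or H2-Q4.

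Signals are given as log2 of the processed intensity minus the 75th percentile of the same array, so that 0 is the 75th percentile and a difference of 1 is a doubling. Between 63.3% and 67.7% of spots were well above background and 0 were saturated. Ifnar1, the targeted gene, read -0.21 and -0.37 on the control arrays against -1.76 and -2.28 on the knockout arrays, and all 3 of its probes lay on the same side; where these probes lie relative to the deleted part is not used here. Lgr5, the marker used for the sort, read 3.04 and 2.82 on the control arrays against 3.32 and 2.93 on the knockout arrays.

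Nlrc5 had the widest difference of the 7 genes, on 1 of its 2 probes. Probe A_55_P2016034 read 0.46 on control 1, -0.36 on control 2, -3.66 on knockout 1 and -2.92 on knockout 2. Both knockout arrays lay far below both control arrays, although all 4 were above background. The mean was 0.05 ± 0.58 (SD, n = 2) in the control and -3.29 ± 0.53 (SD, n = 2) in the knockout. The signal was 17.4-fold lower on slide 1 and 5.86-fold lower on slide 2. These folds rest on dim knockout signals: the lowest signal well above background was -4.26 on knockout 1 and -4.60 on knockout 2. The difference of -3.34 (SE 0.42) did not pass over all genes by limma without a slide term (adjusted p = 0.285), nor with the slide as a block (adjusted p = 0.0562). Leaving out 1 array leaves a group of 1 sample, which is then assumed to vary like the other group. Under that assumption the difference passed by limma without a slide term when control 2 was left out (-3.75, adjusted p = 0.0133, with 0.286% of all genes called lower) or knockout 2 (-3.71, adjusted p = 0.0179, with 0.354%). It did not pass by limma without control 1 (-2.92, adjusted p = 0.114) or without knockout 1 (-2.96, adjusted p = 0.0815).

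The other Nlrc5 probe gave another picture. Probe A_66_P113043 read -1.80 and -2.56 on the control arrays against -1.69 and -2.77 on the knockout arrays, a difference of -0.04 with 0.12 on slide 1 and -0.20 on slide 2. Its groups overlapped fully. Both probes are assigned to the same RefSeq transcript and both were well above background on all 4 arrays. Their differences were 3.29 apart, and only 2 of 3773 genes with several probes (0.053%), Nlrc5 included, had probes at least as far apart, against a median gap of 0.19. The mean of both probes gave a difference of -1.69, and the brighter probe gave -1.78 with normexp background correction, which adds an offset to dim signals. The part of the transcript that each probe reads is not used here.

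**Figure D2:**
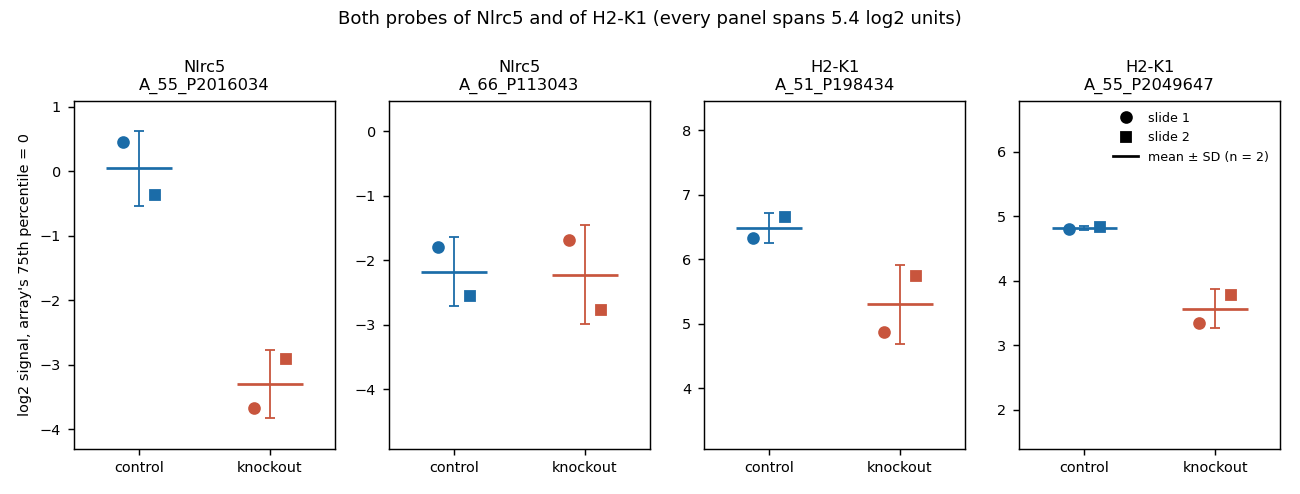
Log2 signal minus the array's 75th percentile for each of the 2 probes of Nlrc5 and of H2-K1, with circles for slide 1, squares for slide 2 and bars for the mean ± SD of 2 arrays; every panel spans the same log2 range. The Nlrc5 probes differ by -3.34 and -0.04 between genotypes, while the H2-K1 probes differ by -1.19 and -1.25.

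The classical heavy chains had lower signals in the knockout, by 2.27-fold for H2-K1 and 2.30-fold for H2-D1. H2-K1, which encodes the K chain, read 6.32 and 6.65 on the control arrays against 4.87 and 5.73 on the knockout arrays on probe A_51_P198434. Both knockout arrays were below both control arrays, and knockout 1 was the lowest. The spot-averaged mean was 6.49 ± 0.23 (SD, n = 2) in the control and 5.30 ± 0.61 (SD, n = 2) in the knockout. The difference was -1.19 (SE 0.33), with -1.45 on slide 1 and -0.92 on slide 2. It missed the threshold by limma without a slide term (adjusted p = 1.00) and with the slide block (adjusted p = 0.0529). Its other probe, A_55_P2049647, read 4.80 and 4.84 on the control arrays against 3.35 and 3.78 on the knockout arrays, a difference of -1.25. The size for H2-K1 rested in part on the knockout arrays: it was -0.75 without knockout 1 and -1.62 without knockout 2.

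H2-D1, which encodes the D chain, read 6.38 and 5.89 on the control arrays against 4.89 and 4.97 on the knockout arrays. The knockout arrays were close together and both below the control arrays. The mean was 6.14 ± 0.34 (SD, n = 2) in the control and 4.93 ± 0.06 (SD, n = 2) in the knockout. The difference of -1.20 (SE 0.23), with -1.48 on slide 1 and -0.92 on slide 2, did not pass by limma without a slide term (adjusted p = 0.567) or with the slide block (adjusted p = 0.0562). Within each slide H2-K1 and H2-D1 differed by nearly the same amount: the H2-K1 difference was higher by 0.03 on slide 1 and by 0.005 on slide 2. A probe for 1 class I gene can be lit by the transcript of another, which was not checked for this pair.

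The nonclassical chains did not share 1 size. H2-T23, which encodes Qa-1, a ligand of the inhibitory receptor CD94/NKG2A, read 3.87 and 3.66 on the control arrays against 2.41 and 2.84 on the knockout arrays. Its groups were separate, with means of 3.76 ± 0.15 and 2.63 ± 0.31 (SD, n = 2 each), and the difference of -1.14 (2.20-fold lower; -1.46 and -0.82 on slides 1 and 2) was close to those of the classical chains. H2-M3, which presents peptides that begin with formyl-methionine, read 0.39 and 0.20 on the control arrays against -0.28 and 0.10 on the knockout arrays. Its groups did not overlap either, but knockout 2 lay only 0.10 below control 2. H2-Q4, a Qa-region chain known as Qb-1, read 6.0 and 5.86 on the control arrays against 5.87 and 5.69 on the knockout arrays, and its groups overlapped, which among the brightest probes of the 7 genes was seen here only. The group means were 0.30 ± 0.13 and -0.09 ± 0.27 (SD, n = 2 each) for H2-M3 in the control and the knockout, and 5.93 ± 0.10 and 5.78 ± 0.12 for H2-Q4. The differences were -0.39 (-0.67 and -0.10 on slides 1 and 2) for H2-M3 and -0.15 (-0.13 and -0.16) for H2-Q4. By limma with the slide block, the adjusted p was 0.0942 for H2-T23, 0.451 for H2-M3 and 0.446 for H2-Q4, and without it 0.611 for H2-T23 and 1.00 for the other pair.

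B2m, the light chain shared by all class I molecules, read 5.71 and 5.52 on the control arrays against 4.72 and 5.06 on the knockout arrays. Both knockout arrays were below both control arrays. The mean was 5.61 ± 0.13 (SD, n = 2) in the control and 4.89 ± 0.24 (SD, n = 2) in the knockout. The difference of -0.72 (1.65-fold lower; -0.99 on slide 1 and -0.46 on slide 2) did not pass by limma without a slide term (adjusted p = 1.00) or with the slide block (adjusted p = 0.176).

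**Figure D3:**
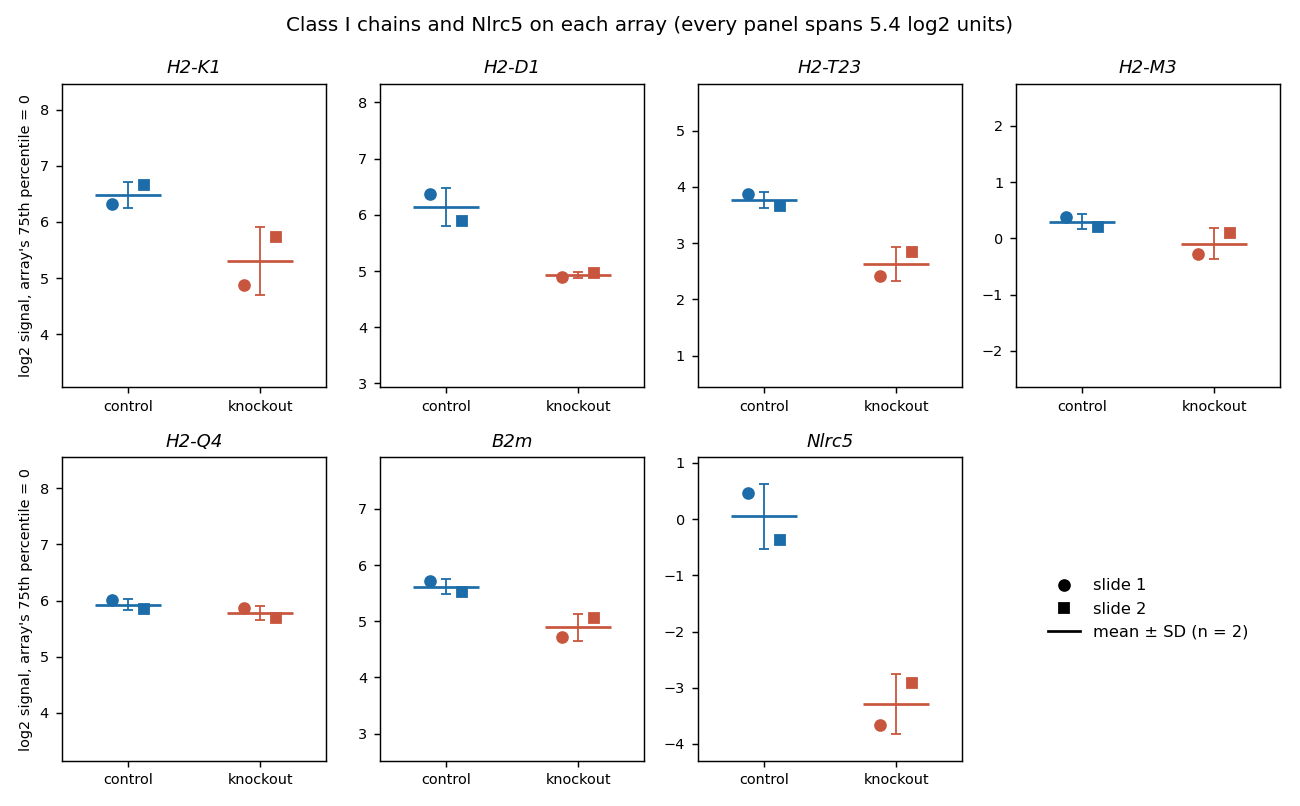
Log2 signal minus the array's 75th percentile for the brightest probe of each of the 7 genes on each of the 4 arrays, with circles for slide 1, squares for slide 2 and bars for the mean ± SD of 2 arrays; every panel spans the same log2 range. The knockout arrays lie below the control arrays in 6 panels, furthest for Nlrc5, and overlap them for H2-Q4.

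By the brightest probe of each gene, all 7 genes were lower in the knockout on each slide, where 27.3% of all 24864 genes were lower on both and 33.9% were higher on both (0 of 7 members). For 6 of 7 genes, again by the brightest probe, both knockout arrays lay below both control arrays, against 11.5% of all genes. The knockout mean was lower by more than 1 on the log2 scale for 4 of 7 (H2-K1, H2-D1, H2-T23 and Nlrc5), against 2.14% of all genes. Nlrc5 stands in these counts by the probe with the highest mean over the 4 arrays. On the knockout arrays its other probe was the brighter, at -1.69 and -2.77 against -3.66 and -2.92. That probe differed by 0.12 on slide 1 and -0.20 on slide 2. By it Nlrc5 would enter none of these counts of lower genes. Because the members were chosen with earlier results of these data known, these counts are a description and no test. The median difference of the members was -1.14, with -1.45 on slide 1 and -0.82 on slide 2, where the median over all genes was 0.02 (0.03 and 0.02). Each of the 7 differences apart from that of H2-Q4 was wider on slide 1.

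None of the 7 passed the threshold of 0.05 over all genes by limma without a slide term, where 0% of genes were called lower and 0% higher; at an unadjusted p under 0.05, 5 of 7 members and 427 genes (1.72%) were lower. With the slide as a block, limma called 82 genes lower (0.33%) and 8 higher (0.0322%), again with 0 of 7 members. Other scalings combined with the slide block, tried after the data had been seen, brought members past the threshold. Calls over all genes rose under the same settings, so each share of genes called lower is given beside the members. By limma with the block, 1 member passed with the percentile taken over all spots (H2-K1, adjusted p = 0.0489; 0.362% of all genes). With the percentile over probes 3 passed (0.43% of all genes), as with quantile scaling (0.495%), these being H2-K1, H2-D1 and Nlrc5 in both. With the mean of all probes 2 passed, H2-K1 and H2-D1 (0.45%). With median scaling 4 passed, H2-T23 being the fourth (limma, adjusted p = 0.0192; 0.74% of all genes), and with normexp background correction 5 passed, B2m included (limma, adjusted p = 0.0244; 0.885%). Without the intensity trend in the variance, the block called 0 members (limma, lowest adjusted p = 0.484). Over all genes it called 0 lower and 0 higher, so this count does not set the members apart. H2-M3 and H2-Q4 passed under none of the settings tried. In bulk RNA of sorted cells, fewer cells that make a transcript and less of it per cell cannot be told apart.

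**Figure D4:**
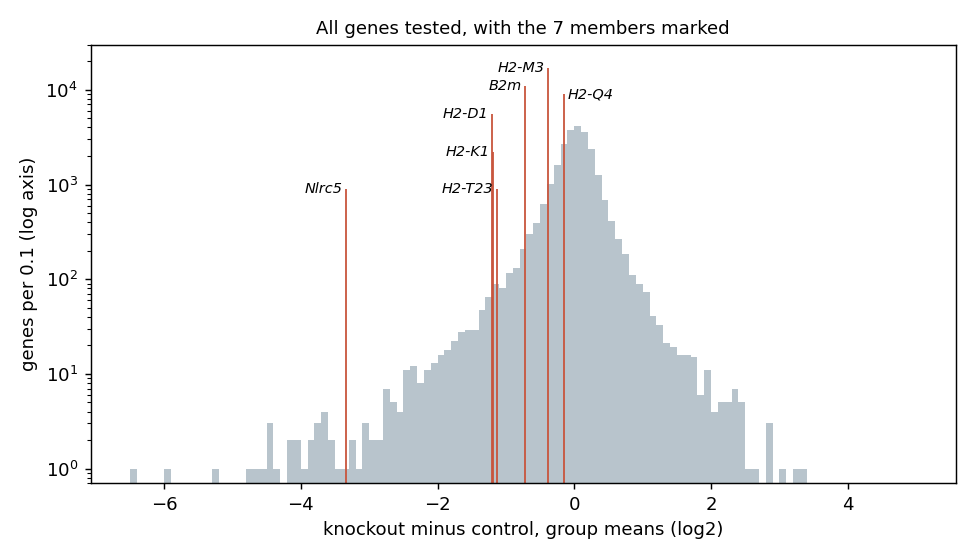
Number of genes (log axis, in bins of 0.1) by knockout minus control difference of group means on the log2 scale, over all 24864 genes tested, with the 7 members marked by red lines whose heights only separate the names. The members run from -3.34 for Nlrc5 to -0.15 for H2-Q4, while the median of all genes is 0.02.

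The members were also set against the heavy chains with the smallest differences, which were chosen after their values had been seen. Relative to H2-Q4 on the same array, the knockout minus control difference was -1.04 for H2-K1, with -1.32 and -0.76 on slides 1 and 2. It was -1.06 for H2-D1 (-1.35 and -0.76), -0.99 for H2-T23 (-1.33 and -0.65) and -0.58 for B2m (-0.85 and -0.30). Relative to H2-M3 it was -0.80 for H2-K1, -0.82 for H2-D1, -0.75 for H2-T23 and -0.34 for B2m. Each of the 8 had an exact permutation p of 0.333 (two-sided), which is the smallest that 2 samples against 2 allow. The references were picked for their small differences, so this outcome follows in part from the choice and is no support for unequal change. Class I genes are near-identical over long stretches, so a probe for 1 gene can be lit by the transcript of another, and probe sequences are not used here.

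Other class I heavy chain genes, a list of 27, had a named probe for 20, and 13 passed the filter on dim probes. Of the 13, 10 were lower on both slides, 1 was higher (H2-M10.2, by 0.55) and 2 were mixed (H2-Q1 at -0.22 and H2-T3 at 0.35; these 3 are named because of their counts). Over all genes 27.3% were lower on both slides and 33.9% higher, and 1.72% were lower at an unadjusted p under 0.05 by limma without a slide term. The counts of this list and of those below stand against these shares. By limma 0 of the 13 passed with or without the slide block (lowest adjusted p with the block, 0.0509), and 6 had an unadjusted p under 0.05 without it. The median was -1.03 (-1.22 and -0.83), but -0.32 over the 20 genes without the filter, which keeps dim genes only where a group is above background. H2-Q5 read 1.77 and 0.32 on the control arrays and -1.72 on each knockout array, a difference of -2.76. H2-K2, H2-Q8 and H2-Q2 differed by -1.22, -1.24 and -1.12. Of class I-like chains outside the H2 complex, 3 of 7 were measured: Hfe, a partner of the transferrin receptor, at -0.64, Fcgrt, the neonatal Fc receptor, at -0.15 and the lipid-presenting Cd1d1 at 0.05.

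**Figure D5:**
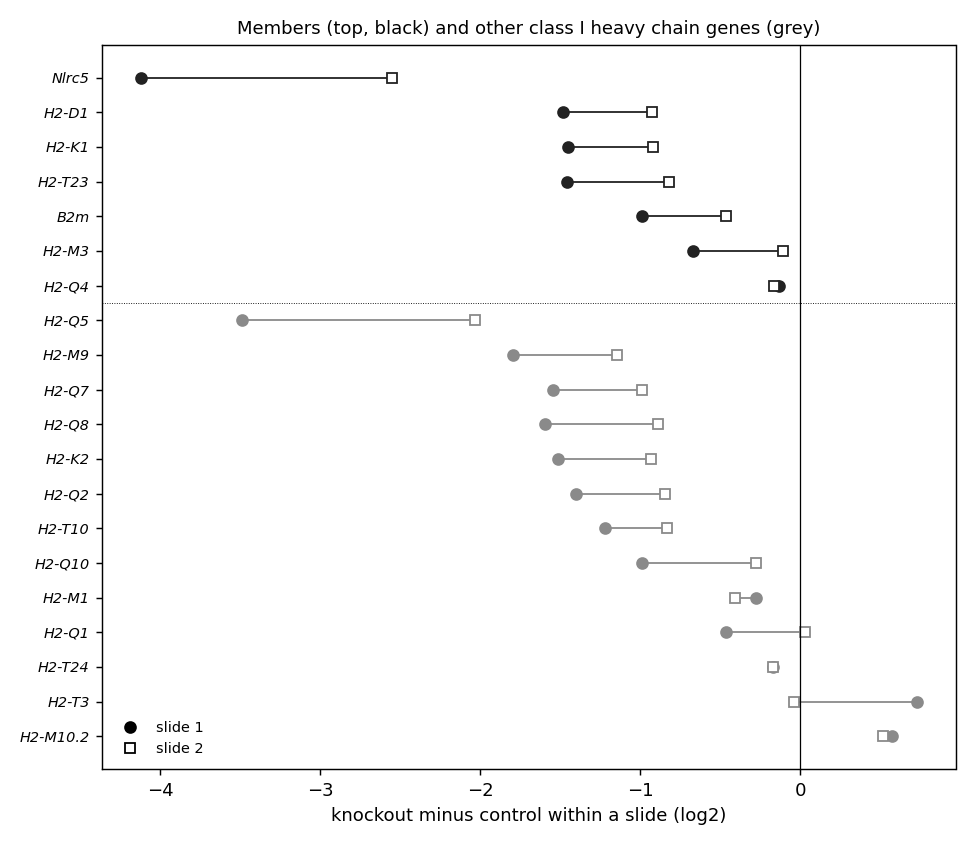
Knockout minus control difference on the log2 scale within slide 1 (filled circles) and slide 2 (open squares) for the 7 members (black, top) and the 13 other class I heavy chain genes that passed the filter (grey). Most pairs lie below 0 and are wider on slide 1; H2-Q4, H2-T24 and H2-M10.2 have nearly equal values on both slides.

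The machinery that feeds peptides to class I differed less as a group. Of 12 measured genes of the immunoproteasome and peptide loading, 8 were lower on both slides, 1 was higher and 3 were mixed, with a median of -0.18 (-0.27 and -0.12). Tap1, a chain of the peptide transporter, read -1.93 and -2.18 on the control arrays against -3.46 and -3.14 on the knockout arrays, a difference of -1.24. Its partner Tap2 differed by -0.75 and the immunoproteasome subunit Psmb8 by -0.54, each lower on both slides, while the loading chaperone Pdia3 differed by -0.18. By limma 0 of the 12 passed with or without the slide block (lowest adjusted p with the block, 0.123), and 2 had an unadjusted p under 0.05 without it.

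The 17 regulators of class I include the RFX, NF-Y, CREB and ATF subunits that NLRC5 works with and factors of the interferon pathway. Of these, 5 were lower on both slides, 2 higher and 10 mixed, against 27.3% lower and 33.9% higher over all genes. The median was -0.03 (-0.07 and -0.01). Irf9, a transcription factor of the interferon response, read 1.62 and 1.33 on the control arrays against 0.42 and 0.69 on the knockout arrays, a difference of -0.92, and Stat2 differed by -1.15. Nfyc, a subunit of NF-Y, was 0.25 higher. By limma 0 of the 17 passed with or without the slide block (lowest adjusted p with the block, 0.126), and 2 had an unadjusted p under 0.05 without it.

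MHC class II genes, which present peptides from outside the cell and are controlled by Ciita, had no common side. Of 8 measured genes, 0 were lower on both slides, 2 were higher and 6 were mixed, and the median of -0.12 was made of -0.55 on slide 1 and 0.29 on slide 2. It was 0.40 without knockout 1 and -0.50 without knockout 2. Cd74, the invariant chain, read 4.99 and 4.20 on the control arrays against 4.19 and 4.52 on the knockout arrays. H2-DMb1, a chain of the peptide editor of class II, was 0.31 higher, and H2-Eb1 and H2-Eb2 each differed by -0.23. By limma 0 of the 8 passed with or without the slide block (lowest adjusted p with the block, 0.377), and 0 had an unadjusted p under 0.05 without it.

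Markers of some other crypt cells were lower in the knockout as well. All 10 measured of 16 listed markers of Paneth cells, antimicrobial secretory cells that sit beside the stem cells, were lower on both slides. By limma with the slide block 7 were called lower, and the median was -1.72. Over all genes 27.3% were lower on both slides and 0.33% were called lower with the block. Their summed signal, in multiples of the array's 75th percentile, was 972 and 1331 on the control arrays against 292 and 534 on the knockout arrays. Ang4, an antimicrobial ribonuclease, differed by -2.50, the colipase Clps by -3.04, and the alpha-defensins Defa3 and Defa26 by -1.65 and -1.79. Enteroendocrine markers were lower on both slides for 9 of 10 and higher for 1, with sums of 9.49 and 13.9 against 5.43 and 8.43. Goblet markers had no common side: of 10, 5 were lower on both slides, 1 was higher and 4 were mixed. Their sums were 156 and 154 on the control arrays against 114 and 157 on the knockout arrays. The part of these cells in the class I differences was not tested.

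Leukocyte markers had no common side. Of 15 measured, 5 were lower on both slides, 6 higher and 4 mixed, against 27.3% lower and 33.9% higher over all genes. Their sums were 246 and 367 on the control arrays against 241 and 358 on the knockout arrays, of which the single gene Itgam made 83.8% to 90.8%. Without Itgam, left out after its share had been seen, the sums were 39.9 and 38.5 against 36.7 and 32.8. Lyz2, a lysozyme of macrophages, read 2.04 and 2.56 on the control arrays against -0.78 and 0.10 on the knockout arrays. It was called lower by limma with the slide block (difference -2.64, adjusted p = 0.00830), as were 0.33% of all genes. The sums without Itgam still hold Lyz2. Csf1r, Adgre1 and Itgam, leukocyte markers named after their values were seen, differed by -0.07, 0.24 and -0.01. Adgre1 was well above background on only 1 knockout array and was mixed, with -0.14 on slide 1 and 0.61 on slide 2. Which cells gave the Lyz2 difference was not tested. The Paneth cell marker Lyz1 differed by -2.01. Granzyme A (Gzma) differed by 1.06 and Cd8a by 0.67, while Cd3g was not well above background on either control array. Cd8a read -4.03 and -3.77 on the control arrays, where the lowest signal well above background was -4.54 and -4.35. The other T cell and cytotoxic markers, named after their values were seen, had no common side. Gzmb, Cd4 and Cd3e differed by 0.48, 0.19 and 0.01, and Cd8b1 and Nkg7 by -0.27 and -0.29. The part of leukocytes in the class I differences was not tested. Tuft cell markers summed to 2.47 and 2.60 against 2.28 and 3.0, with 3 of 7 lower on both slides, 2 higher and 2 mixed. Enterocyte markers summed to 57.4 and 67.4 against 77.2 and 85.2. Of 10, 7 were higher on both slides, 2 lower and 1 mixed, with a median of 0.44. The 13 measured markers of Lgr5 stem cells summed to 181 and 188 on the control arrays against 176 and 187 on the knockout arrays, with 4 lower on both slides, 7 higher and 2 mixed. Of 10 housekeeping genes, 1 was lower on both slides and 8 were higher, with a median of 0.10.

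Genes whose pattern over the 4 arrays was nearest to a member were ranked by the root mean square distance of their log2 values after each gene was centred on its own mean, over 13854 named genes. Nearest to Nlrc5 were Oas1a (distance 0.18, difference -3.47), which makes 2-5A in response to double-stranded RNA, Phf11a (0.26, difference -3.81) and Dhx58 (0.27, difference -3.58), a helicase of the RIG-I family whose probe was not well above background on knockout 1. Nearest to H2-K1 were Gadd45g (0.05, difference -1.12), a stress-inducible gene, Reg1 (0.07, difference -1.05), a secreted lectin, and Gsn (0.08, difference -1.03), which encodes the actin-severing protein gelsolin. Nearest to B2m were Ogfr, the opioid growth factor receptor (0.05, difference -0.74), Disp1 (0.05, difference -0.76) and Trim25, a ubiquitin ligase (0.05, difference -0.75). The members were not one another's nearest genes by this measure: H2-T23 ranked 58 for H2-K1, with H2-D1 at rank 357. The distance also counts shifts between slides that both genotypes share. H2-K1 minus H2-D1 was -0.05 and 0.76 on control arrays 1 and 2 and -0.02 and 0.76 on knockout arrays 1 and 2. The rank of H2-D1 therefore does not stand for an unlike difference between genotypes. With 4 arrays many genes fall close to any pattern, and these ranks are a description.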

How the data were processed

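Total RNA of sorted cells was amplified, labelled with Cy3 and hybridised to Agilent arrays, per the labels' protocols. The deposited scanner files hold background-subtracted spot intensity on a linear scale, per the file headers. The headers name Agilent Feature Extraction version 12.0.3.1, and the submitters' processing notes give 11.5.1.1. The authors' value table holds the same intensity multiplied by 1 constant per array (6.61 and 5.93 in the control, 6.68 and 5.60 in the knockout), with column medians of 249, 231, 239 and 223; it is not centred, and the target of its scaling remains unknown.

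Each array had 62976 spots, of which 59305 were no controls and carried 55681 probes. Control spots and outlier spots were left out, log2 of the deposited processed intensity was taken, the array's 75th percentile over the remaining spots was subtracted, and spots of a probe were averaged. Probes were kept if both arrays of either group were well above background (35421 probes). The brightest probe, by its mean over the 4 arrays of both groups, stood for its gene (24864 genes, 14801 with a symbol). RefSeq's table for GRCm38.p6, matched by transcript, gave names to 28331 probes (21368 symbols). The arrays are annotated on another build, so no probe coordinates are given.

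The test was that of limma (version 3.58.1, R version 4.3.3), with an intensity trend in the moderated variances and p-values adjusted by Benjamini-Hochberg over all genes at 0.05. Fits with and without the slide as a block were run, because each slide held both groups. The slide goes with the replicate number in the labels. The difference between replicates 1 and 2 in the control and that in the knockout had a Pearson r of 0.563 across genes, from 2 pairs, and genes are not independent replicates. The fits were tested on simulated data. All 7 members were named, with up to 4 genes per other list by smallest p without the block, and the 3 genes nearest in pattern to Nlrc5, H2-K1 and B2m. A single gene that this rule would name among the regulators is not reported here. The members and lists were chosen with earlier results of these data known. Alternatives covered the block, the scaling, background correction (normexp, offset 50), the authors' table, the filter, the probe rule, outlier spots, the variance model and leaving out each array.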

Additional observations from a re-analysis of the deposited data

How the results depend on the processing

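All 7 members kept a lower value in the knockout under each of the 24 alternatives run. The median difference of the members stayed between -1.24 and -0.75. The block and the variance model cannot move a difference, and the filters left those of the members unchanged, so these alternatives are no check on direction. Nlrc5 probe A_66_P113043 stood alone for its gene in none of the alternatives. Without the slide term, limma called 0 members under every planned scaling, filter and probe rule. Over all genes these fits also called 0 lower and 0 higher, so they do not set the members apart. Where 1 array was left out, the lone sample of a group is assumed to vary like the other group. The replicate block called 82 genes lower and 8 higher, against 0 and 0 without it, and 0 members. Leaving out 1 array, without a block, gave 9 (without knockout 1) to 88 (without knockout 2) genes lower, with 18 without control 1 and 71 without control 2, 0 to 3 higher, and 0 to 1 members. The Nlrc5 difference then ran from -3.75 to -2.92 and the H2-K1 difference from -1.62 to -0.75.

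The replicate block was combined with other settings after the data had been seen. With the percentile over all non-control spots, limma called 90 genes lower and 13 higher and 1 member, H2-K1 (-1.19). With the percentile over probes it called 107 and 14, and 3 members, H2-K1 (-1.19), H2-D1 (-1.21) and Nlrc5 (-3.34). Quantile scaling gave 123 and 22, and 3 members, H2-K1 (-1.23), H2-D1 (-1.25) and Nlrc5 (-3.32). Median scaling gave 184 and 82, and 4 members, H2-K1 (-1.17), H2-D1 (-1.19), H2-T23 (-1.12) and Nlrc5 (-3.32). Normexp gave 220 and 124, and 5 members, H2-K1 (-1.16), H2-D1 (-1.23), H2-T23 (-1.08), B2m (-0.74) and Nlrc5 (-1.78). Probes well above background on all 4 arrays gave 70 and 8, and 0 members. The mean of all probes gave 112 and 24, and 2 members, H2-K1 (-1.22) and H2-D1 (-1.20). The cause of these moves was not tested. The authors' table gave the same values by its construction.

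With 2 arrays per group, the number of arrays and the signal over background limit precision. The lowest log2 signal well above background was -4.60 to -4.26 per array, and Tap1 and Nlrc5 in the knockout lay within about 2 units of it.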
